A study of Mus musculus with 5 samples.

Results

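The miR-15, miR-16 and miR-195a family is a set of miRNAs whose main products begin with nearly the same bases. Its 8 members were taken by name from the count sheet: mmu-miR-15a-5p, mmu-miR-15b-5p, mmu-miR-15b-3p, mmu-miR-16-5p, mmu-miR-16-1-3p, mmu-miR-16-2-3p, mmu-miR-195a-5p and mmu-miR-195a-3p, written below without the prefix for mouse. They are 8 of the 717 mature miRNAs left after entries with identical sequences were joined, and each was counted in at least 2 libraries. Small RNA came from the testes of C57BL/6 mice at 6 months of age. There were 3 libraries from Mtdh-/- mice, deficient for exon 3 of the gene that encodes metadherin, and 2 libraries from wild-type mice. The labels give no treatment, no promoter or Cre line, and no statement on whether each library came from a separate animal. The p-values therefore cover the spread between libraries, which may be technical.

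A miRNA is cut from a hairpin precursor, and either side of the hairpin, the 5p or the 3p arm, can be loaded into an Argonaute protein. Pairing of the seed, bases 2 to 8, with messenger RNAs directs repression. The 5p members of the family are known for targeting cyclins and other cell-cycle genes and the survival gene Bcl2, and mir-15a and mir-16-1 are often deleted in human chronic lymphocytic leukaemia. Mammalian genomes carry the same mature miR-16-5p in 2 hairpins, each beside a different miR-15 gene.

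The mature 5p sequences are shown because they hold the shared seed, in capitals, and the bases that tell the members apart. They are RefSeq sequences placed on GRCm38.p6, and all equalled the mature sequences in the deposited sheet. miR-322-5p and miR-497-5p are outside the family by name but carry the same seed.
miR-15a-5p: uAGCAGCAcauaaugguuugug
miR-15b-5p: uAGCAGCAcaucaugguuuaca
miR-16-5p: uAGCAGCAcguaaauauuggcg
miR-195a-5p: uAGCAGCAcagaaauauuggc
miR-322-5p: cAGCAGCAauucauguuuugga
miR-497-5p: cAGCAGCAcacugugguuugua
The 4 members split into 2 closer pairs beyond the seed. miR-16-5p and miR-195a-5p were identical at 19 of 21 positions, differing by G10A and U11G, with positions counted from 1 at the 5′ end and the base of miR-16-5p given first. miR-15a-5p and miR-15b-5p were identical at 18 of 22 positions, differing by A12C, G20A, U21C and G22A, with the base of miR-15a-5p first.

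The 3p members do not carry the family seed, and no 3p member shares its seed with another. Capitals again mark bases 2 to 8.
miR-15b-3p: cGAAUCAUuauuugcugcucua
miR-16-1-3p: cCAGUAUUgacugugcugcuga
miR-16-2-3p: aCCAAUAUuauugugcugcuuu
miR-195a-3p: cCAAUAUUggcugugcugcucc

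The genes lie on 3 chromosomes. On GRCm38, mature miR-15a-5p is at chr14:61632075-61632096 on the minus strand, and the hairpin of mir-16-1 is at chr14:61631880-61631972 on the same strand. Both lie within Dleu2, a long noncoding gene, and the mir-16-1 hairpin overlaps an annotated Dleu2 exon. The hairpins of mir-15b, at chr3:69009772-69009835, and mir-16-2, at chr3:69009902-69009996, are on the plus strand 66 bases apart, in intronic sequence of Smc4, which encodes a condensin subunit. The mir-195a hairpin, at chr11:70235042-70235135 on the plus strand, is 241 bases from that of mir-497 and overlaps no other annotated gene.

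Counts of miRNAs totalled 720259, 118475 and 258433 in Mtdh-/- 1, 2 and 3, against 198640 and 474839 in wild type 1 and 2. Values are given as CPM, counts scaled to the same total of miRNA counts in every library. A miRNA with 0 counts could still be present, and the limit used was the level of 3 counts. That was 4.17, 25.3 and 11.6 CPM in Mtdh-/- 1, 2 and 3. In wild type 1 and 2 it was 15.1 and 6.32 CPM. The smallest deposited count above 0 was 2. Whether single reads were left out is not stated, so these levels are not strict limits. Summed levels of 17 germ-cell miRNAs, all counted and 16 of them in every library, were 59034 to 107784 CPM in Mtdh-/- libraries, against 133865 and 142193 CPM in wild-type libraries. Taken singly, 2 of the 17, miR-465a-5p and miR-465c-5p, had each Mtdh-/- value below both wild-type values, and 15 overlapped. Over all 246 tested miRNAs, each Mtdh-/- value was below both wild-type values for 9.35%. Of the 16 germ-cell miRNAs tested, 3 had log2 fold changes above 0 and 13 below, against 137 above and 109 below over all 246. Of the 16, 0 passed edgeR's test, against 0% of all tested. The marker at 0 was miR-883b-3p in Mtdh-/- 2, the library with the lowest germ-cell sum. Summed levels of 4 red-cell miRNAs were also lower, at 1154 to 1299.9 CPM in Mtdh-/- libraries, against 1436 and 1546 CPM in wild-type libraries. That sum was mostly miR-486-5p, at 998 to 1138 CPM in Mtdh-/- libraries, against 1331 and 1460 CPM in wild-type libraries. miR-451a went the other way, with a log2 fold change of 0.83 ± 0.79 (SE), and overlapped between genotypes. miR-144-3p was at 0 in Mtdh-/- 3 and miR-144-5p was at 0 in Mtdh-/- 2 and wild type 2. Summed Sertoli, white-cell, endothelial, striated-muscle and smooth-muscle lists overlapped between genotypes. Within the white-cell list, miR-142-3p had 9.72, 16.9 and 11.6 CPM in Mtdh-/- 1, 2 and 3. In wild type 1 and 2 it had 35.2 and 44.2 CPM. Those values did not overlap, but they rest on 2 to 21 counts and were not tested. The share of such miRNAs among those tested was the 9.35% given above. The smooth-muscle list, which includes stroma, was mostly miR-143-3p, at 109804 of 116286 CPM in Mtdh-/- 2. Within that list, miR-214-3p had 13.9, 4558 and 65.8 CPM in Mtdh-/- 1, 2 and 3, against 40.3 and 37.9 CPM in wild type 1 and 2. miR-199a-5p had 2210, 67.5 and 96.7 CPM, against 20.1 and 172.7 CPM, in the same order. Both overlapped between genotypes. The part of these marker shifts in the family's values was not tested. In a whole testis, fewer cells of a type and less RNA per cell cannot be told apart. Mtdh is not a miRNA, and its loss was not checked by these data.

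No member of the family passed the test between genotypes, and miR-16-5p made up most of the family in every library. The widest departures within the family were in single libraries: miR-15b-5p and miR-195a-5p stood far above their other values in Mtdh-/- 2, and miR-15a-5p in wild type 2. Of the 8 members, 5 had enough counts to be tested with edgeR's quasi-likelihood test, and 0 passed an adjusted p of 0.05 in either direction. Over all 246 miRNAs tested, percent called was 0% higher and 0% lower, the lowest adjusted p was 0.867, and 7 had an unadjusted p under 0.05. DESeq2 also called 0 miRNAs of 511, with 19 at an unadjusted p under 0.05, and limma called 0 of 246, with 4. Of the 5 tested members, 3 had log2 fold changes above 0 and 2 below, with a median of 0.36, against 137 above, 109 below and a median of 0.19 over all 246. The genotypes overlapped for each of the 5, where every Mtdh-/- library was above both wild types for 4.88% and below both for 9.35% of all tested miRNAs.

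miR-16-5p is the member produced from both hairpins. The values used are those listed under mir-16-1, the line with the larger total, and not a sum over both hairpins. On that line miR-16-5p had 29674, 62199 and 53708 CPM in Mtdh-/- 1, 2 and 3, against 48575 and 26270.0 CPM in wild type 1 and 2. The lowest Mtdh-/- library lay between the wild-type libraries, and the other two were above both. Among all miRNAs of its library it ranked 6, 4 and 3 in Mtdh-/- 1, 2 and 3, against 6 and 8 in wild type 1 and 2. Its mean was 48527 ± 16870.1 CPM in Mtdh-/- (SD, n = 3) and 37423 ± 15772 CPM in wild type (SD, n = 2). The log2 fold change of Mtdh-/- over wild type was 0.36 ± 0.56 (SE), with an adjusted p of 0.938 by edgeR. Without wild type 2 it was -0.19, and with upper-quartile scaling of the libraries it was 0.02.

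miR-15a-5p, the partner of mir-16-1 in Dleu2, had 212, 1562 and 635 CPM in Mtdh-/- 1, 2 and 3, against 659 and 8472 CPM in wild type 1 and 2. Wild type 2 was 5.43-fold above the next library, Mtdh-/- 2, and wild type 1 lay within the Mtdh-/- range. Its mean was 803 ± 690.1 CPM in Mtdh-/- (SD, n = 3) and 4566 ± 5525 CPM in wild type (SD, n = 2). The log2 fold change was -2.34 ± 1.05 (SE), the lowest of the 246 tested miRNAs, with an adjusted p of 0.867 by edgeR. It was -0.02 without wild type 2.

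miR-15b-5p, the partner of mir-16-2 in Smc4, had 437, 11614 and 623 CPM in Mtdh-/- 1, 2 and 3, against 957 and 1251 CPM in wild type 1 and 2. Mtdh-/- 2 was 9.28-fold above the next library, wild type 2, while the other Mtdh-/- libraries were below both wild types. Its mean was 4225 ± 6400.1 CPM in Mtdh-/- (SD, n = 3) and 1104 ± 208 CPM in wild type (SD, n = 2). The log2 fold change was 1.84 ± 1.39 (SE), with an adjusted p of 0.867 by edgeR, and its sign changed to -0.83 without Mtdh-/- 2.

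miR-195a-5p, from the locus shared with mir-497, had 528, 16544 and 933 CPM in Mtdh-/- 1, 2 and 3, against 856 and 832 CPM in wild type 1 and 2. The wild-type libraries were close to each other, Mtdh-/- 1 was below them, and Mtdh-/- 2 was 17.7-fold above the next library, Mtdh-/- 3. Its mean was 6001 ± 9132 CPM in Mtdh-/- (SD, n = 3) and 844 ± 16.9 CPM in wild type (SD, n = 2). The log2 fold change was 2.69 ± 1.47 (SE), with an adjusted p of 0.867 by edgeR, and it was -0.04 without Mtdh-/- 2.

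A level at least 5-fold above every other library, a threshold chosen after the values were seen, was uncommon. It was reached by Mtdh-/- 2 for 8 of the 246 tested miRNAs (3.25%), by wild type 2 for 2 (0.813%), by Mtdh-/- 1 for 2 (0.813%) and by Mtdh-/- 3 and wild type 1 for 0. miR-15b-5p and miR-195a-5p were among the 8 of Mtdh-/- 2, and miR-15a-5p was among the 2 of wild type 2. Mtdh-/- 2 was also the library with the fewest miRNA counts and the lowest germ-cell sum. The part of depth in these values was not tested. The high values were 1376 counts of miR-15b-5p and 1960 counts of miR-195a-5p in Mtdh-/- 2, and 4023 counts of miR-15a-5p in wild type 2.

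**Figure D1:**
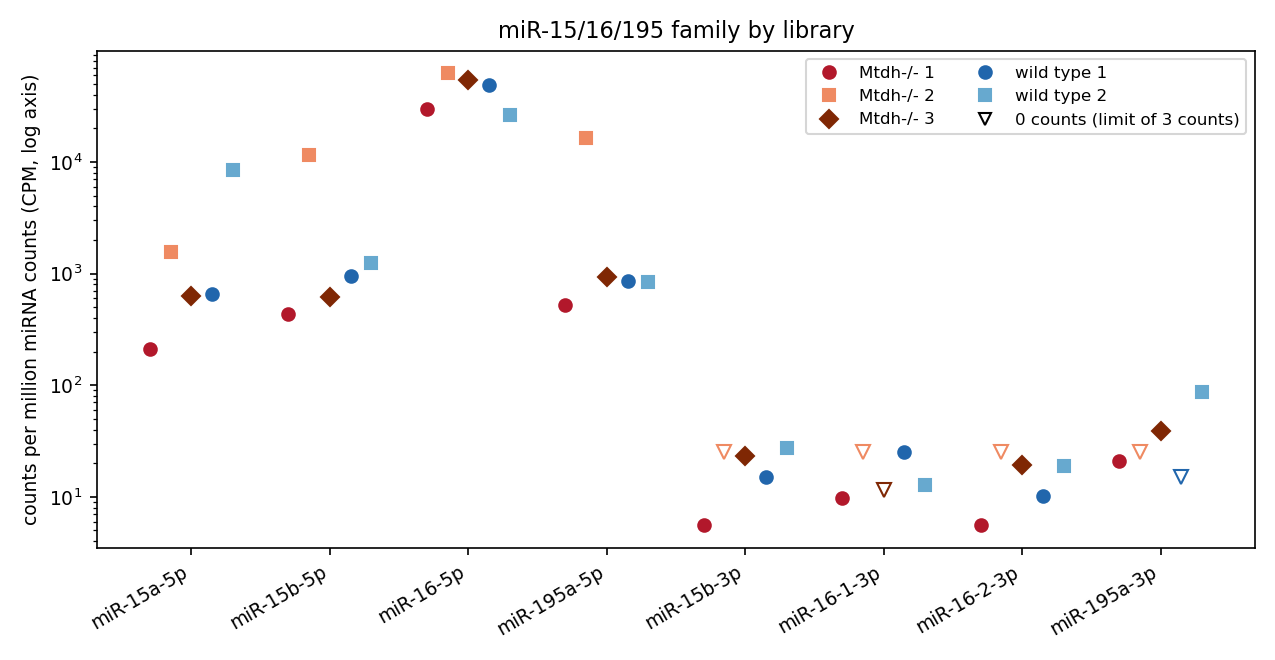
Level of each of the 8 members in each library, in CPM on a log axis, with Mtdh-/- libraries left of wild-type libraries and open triangles at the limit of 3 counts for a member with 0 counts. miR-16-5p lies between 26270.0 and 62199 CPM in every library, while miR-15a-5p reaches 8472 CPM only in wild type 2 and miR-195a-5p reaches 16544 CPM only in Mtdh-/- 2.

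The 3p members were near the counting limit. miR-195a-3p had 15, 0 and 10 counts in Mtdh-/- 1, 2 and 3, against 0 and 41 counts in wild type 1 and 2. As CPM this was 20.8, 0 and 38.7 in Mtdh-/- libraries, against 0 and 86.3 in wild-type libraries, and the genotypes overlapped. Its log2 fold change was -0.66 ± 1.57 (SE), with an adjusted p of 0.949 by edgeR. miR-15b-3p had 4, 0 and 6 counts in Mtdh-/- 1, 2 and 3, against 3 and 13 counts in wild type 1 and 2, and was not tested. miR-16-2-3p had 4, 0 and 5 counts in Mtdh-/- 1, 2 and 3, against 2 and 9 counts in wild type 1 and 2, and was not tested. Both overlapped between genotypes.

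miR-16-1-3p had 7, 0 and 0 counts in Mtdh-/- 1, 2 and 3, against 5 and 6 counts in wild type 1 and 2, and was not tested. On the CPM scale the level was 9.72 in Mtdh-/- 1, against 25.2 and 12.6 in wild type 1 and 2. These 3 values and the zeros do not overlap between genotypes, but 3 counts in Mtdh-/- 2 would be 25.3 CPM, so a difference was not detectable at this depth. Over all 246 tested miRNAs, every Mtdh-/- library was below both wild types for 9.35%.

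The 5p arm exceeded the 3p arm wherever both were counted. miR-195a-5p had 25.3 and 24.1 times the counts of miR-195a-3p in Mtdh-/- 1 and 3, against 9.63 times in wild type 2. In Mtdh-/- 2, where miR-195a-5p was highest, its 3p arm had 0 counts. The 5p arm there was 653-fold above 3 counts, a level that is not a strict limit. miR-15b showed the same in that library, with 0 counts of the 3p arm and a 5p arm 459-fold above 3 counts. The ratio for miR-15b was 78.8 and 26.8 in Mtdh-/- 1 and 3, against 63.3 and 45.7 in wild type 1 and 2. The high levels of miR-15b-5p and miR-195a-5p in Mtdh-/- 2 were thus counts of the 5p arm without counts of its partner.

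Summed over the 8 members, the family held 3.09% of miRNA counts in Mtdh-/- 1 (Wilson 95% interval 3.05 to 3.13), 9.19% in Mtdh-/- 2 (9.03 to 9.36) and 5.60% in Mtdh-/- 3 (5.51 to 5.69). It held 5.11% in wild type 1 (5.01 to 5.21) and 3.70% in wild type 2 (3.64 to 3.75). The reads carry no molecular identifiers in the sources used here, so these intervals and the limits of 3 counts cover counting error only. The summed level averaged 59597 ± 30673 CPM in Mtdh-/- (SD, n = 3) and 44034 ± 9989 CPM in wild type (SD, n = 2), a ratio of 1.35. Without Mtdh-/- 2 the ratio was 0.986. Leaving miR-16-5p out, the summed level was 1219, 29719 and 2271 CPM in Mtdh-/- 1, 2 and 3, against 2522 and 10700.5 CPM in wild type 1 and 2.

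The composition of the family split the libraries across genotype. miR-16-5p made up 96.1% of family counts in Mtdh-/- 1 (Wilson 95% interval 95.8 to 96.3), 67.7% in Mtdh-/- 2 (66.8 to 68.5) and 95.9% in Mtdh-/- 3 (95.6 to 96.3). It made up 95.1% in wild type 1 (94.6 to 95.5) and 71.1% in wild type 2 (70.4 to 71.7). In 3 libraries, from both genotypes, it was thus at least 95.1%, and in the remaining library of each genotype it was at most 71.1%.

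The members that held the remainder differed between those libraries. In Mtdh-/- 2, miR-195a-5p made up 18% and miR-15b-5p 12.6% of family counts, with miR-15a-5p at 1.70%. In wild type 2, miR-15a-5p made up 22.9%, with miR-195a-5p at 2.25% and miR-15b-5p at 3.38%. In the other libraries each of these members held 0.688% to 1.87%. The 3p members held 0 counts in Mtdh-/- 2, and 69 of 17555 family counts in wild type 2. The share of miR-16-5p averaged 86.6% ± 16.4 in Mtdh-/- (SD, n = 3) and 83.1% ± 16.98 in wild type (SD, n = 2). The difference was 3.49 percentage points, with p = 0.8 in a two-sided exact permutation test whose smallest possible p is 0.1. The difference was -2.10 points when the exact mature sequence was counted, and -8.51 points without wild type 2.

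**Figure D2:**
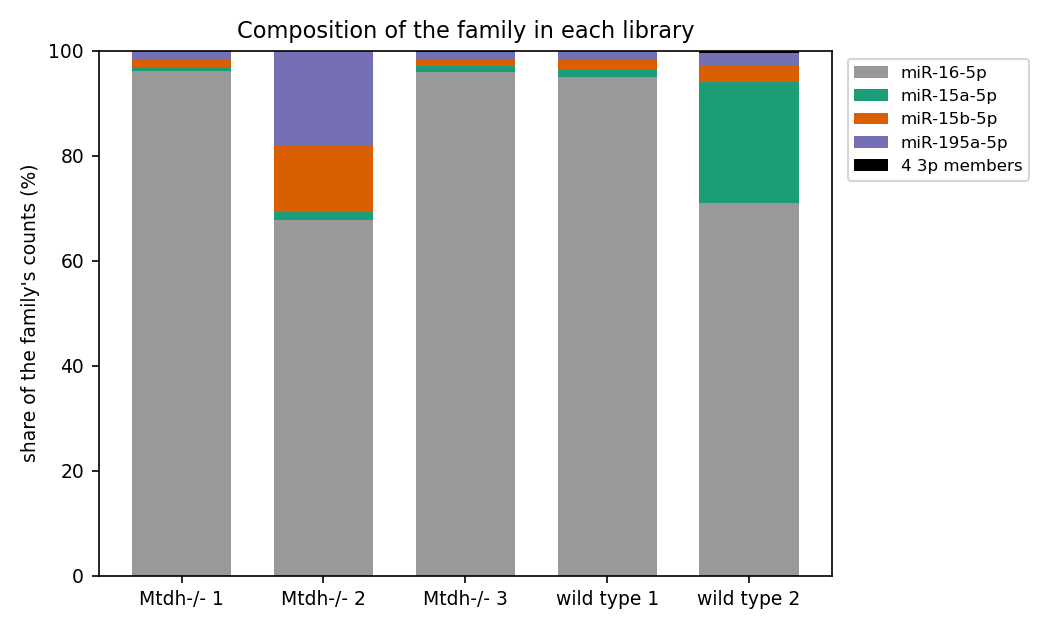
Share of each member in the family's counts, in percent, stacked for each library with Mtdh-/- libraries left of wild-type libraries. miR-16-5p holds 67.7% in Mtdh-/- 2 and 71.1% in wild type 2, where miR-195a-5p with miR-15b-5p and miR-15a-5p take the remainder, and at least 95.1% elsewhere.

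**Figure D3:**
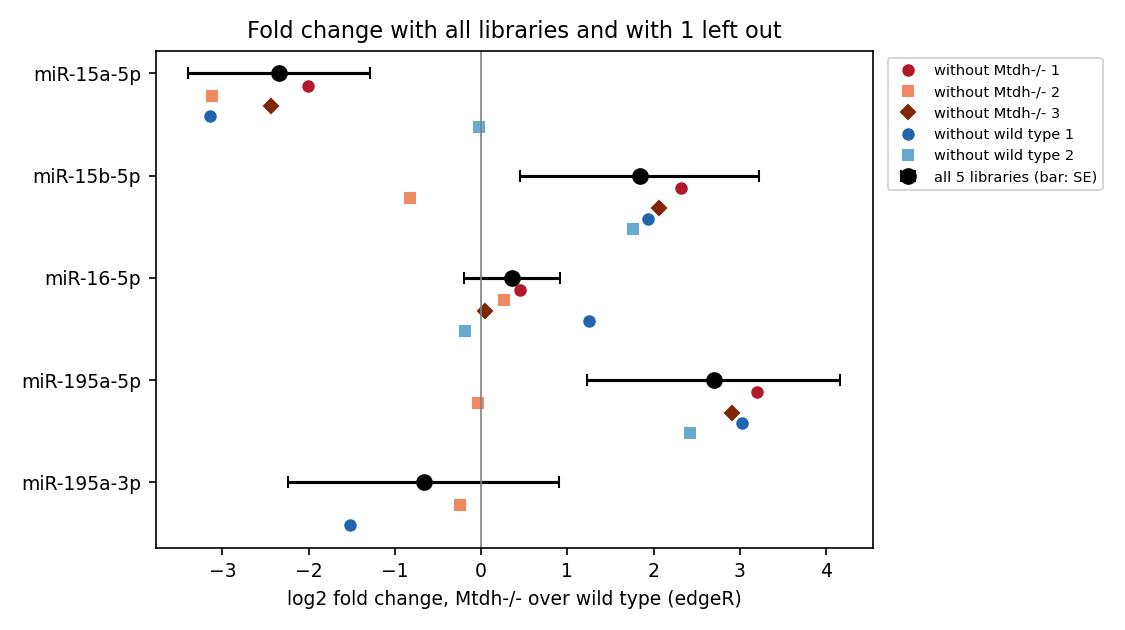
Log2 fold change of Mtdh-/- over wild type by edgeR for the 5 tested members, with all 5 libraries (black, bar of 1 SE) and with each library left out in turn. miR-15b-5p and miR-195a-5p fall to -0.83 and -0.04 without Mtdh-/- 2, and miR-15a-5p is -0.02 without wild type 2. Besides the fit of all 5 libraries, miR-195a-3p is drawn only for the 2 left-out fits in which it was tested.

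The counts used cover all isoforms of a miRNA, the exact mature sequence and its variants. The 2 members that were high in Mtdh-/- 2 also differed there in isoforms, in opposite directions. The exact mature sequence made up 44.2%, 79.4% and 49.4% of miR-195a-5p counts in Mtdh-/- 1, 2 and 3, against 38.8% and 36.5% in wild type 1 and 2. The Wilson 95% interval in Mtdh-/- 2 was 77.5% to 81.1%, above the intervals of the other libraries. Without that library the Mtdh-/- values were still above both wild-type values, but their intervals, from 39.3% in Mtdh-/- 1, overlapped that of wild type 1, up to 46.3%. Among 230 tested miRNAs counted in all 5 libraries, this share was above both wild types in every Mtdh-/- library for 6.09% and below both for 8.26%, and the split of miR-195a-5p was not tested. For miR-15b-5p the exact mature sequence made up 71.1%, 33.6% and 52.8% in Mtdh-/- 1, 2 and 3, against 55.3% and 61.4% in wild type 1 and 2. There Mtdh-/- 2, with an interval of 31.1% to 36.1%, was below the others.

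The exact mature sequence was the minority form of miR-15a-5p throughout, at 10.5%, 15.7% and 8.54% in Mtdh-/- 1, 2 and 3, against 13.7% and 21.8% in wild type 1 and 2. Its most abundant form, 57.5% to 67.6% of its counts in Mtdh-/- libraries, against 61.1% and 67.3% in wild-type libraries, lacks the last base. For miR-15b-5p the authors' deposited tables for Mtdh-/- 1 and Mtdh-/- 2 list the form without its last base as most abundant. The count sheet lists the full mature sequence instead. In Mtdh-/- 1 the full sequence made up 71.1% of miR-15b-5p counts, so the shortened form was a minority there. In Mtdh-/- 2 the full sequence made up 33.6%. The shortened forms are shown in DNA letters as deposited, with the seed in capitals.
miR-15a-5p, 21 bases: tAGCAGCAcataatggtttgt
miR-15b-5p, 21 bases: tAGCAGCAcatcatggtttac
For miR-16-5p the exact mature sequence made up 76.5%, 74.2% and 81.6% in Mtdh-/- 1, 2 and 3, against 78.1% and 67.4% in wild type 1 and 2. It was lowest in wild type 2. The shares overlapped between genotypes for miR-15a-5p, miR-15b-5p and miR-16-5p.

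**Figure D4:**
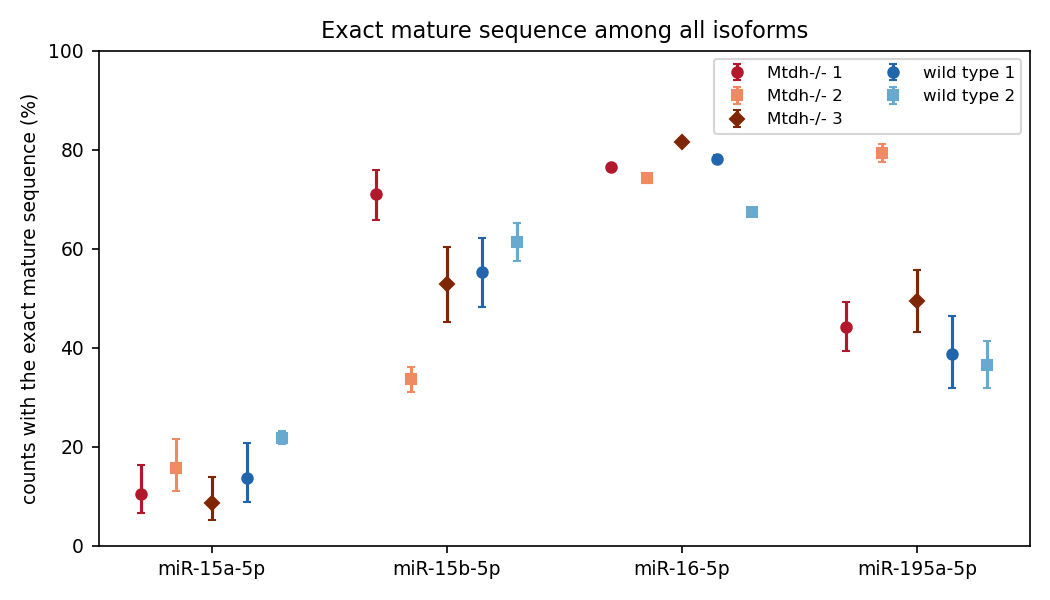
Share of counts with the exact mature sequence, in percent, for the 4 members of the 5p arm in each library, with Wilson 95% intervals and Mtdh-/- libraries left of wild-type libraries. In Mtdh-/- 2 the share is 79.4% for miR-195a-5p, above the other libraries, and 33.6% for miR-15b-5p, below them.

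The sheet lists miR-16-5p once under each of its hairpins, with nearly the same reads. The hairpins are shown because the mature sequence alone cannot tell them apart. Capitals mark the mature 5p and 3p arms.
mir-16-1: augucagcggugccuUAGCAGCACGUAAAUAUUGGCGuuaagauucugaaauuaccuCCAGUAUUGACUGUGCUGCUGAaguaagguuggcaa
mir-16-2: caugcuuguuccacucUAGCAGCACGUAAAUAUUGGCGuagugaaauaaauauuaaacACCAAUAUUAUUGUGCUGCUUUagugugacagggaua
The identical stretch runs for 23 bases, the mature sequence and 1 base after it. The next base is U in mir-16-1 and A in mir-16-2.

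The 2 lines were close in 3 libraries and parted in the others. The line of mir-16-2 held 99.9%, 104% and 100.04% of the counts of the mir-16-1 line in Mtdh-/- 1, 2 and 3, against 99.9% and 93.5% in wild type 1 and 2. As a difference, the mir-16-1 line minus the mir-16-2 line was 27, -308 and -5 counts in Mtdh-/- 1, 2 and 3, against 11 and 815 counts in wild type 1 and 2. The excess on the mir-16-1 line was thus in the library where its cluster partner miR-15a-5p was highest. The excess on the mir-16-2 line was in the library where its cluster partner miR-15b-5p was highest. With 5 libraries and differences of at most 815 counts this is a description. How reads were assigned to the lines is not stated in the sources used here.

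**Figure D5:**
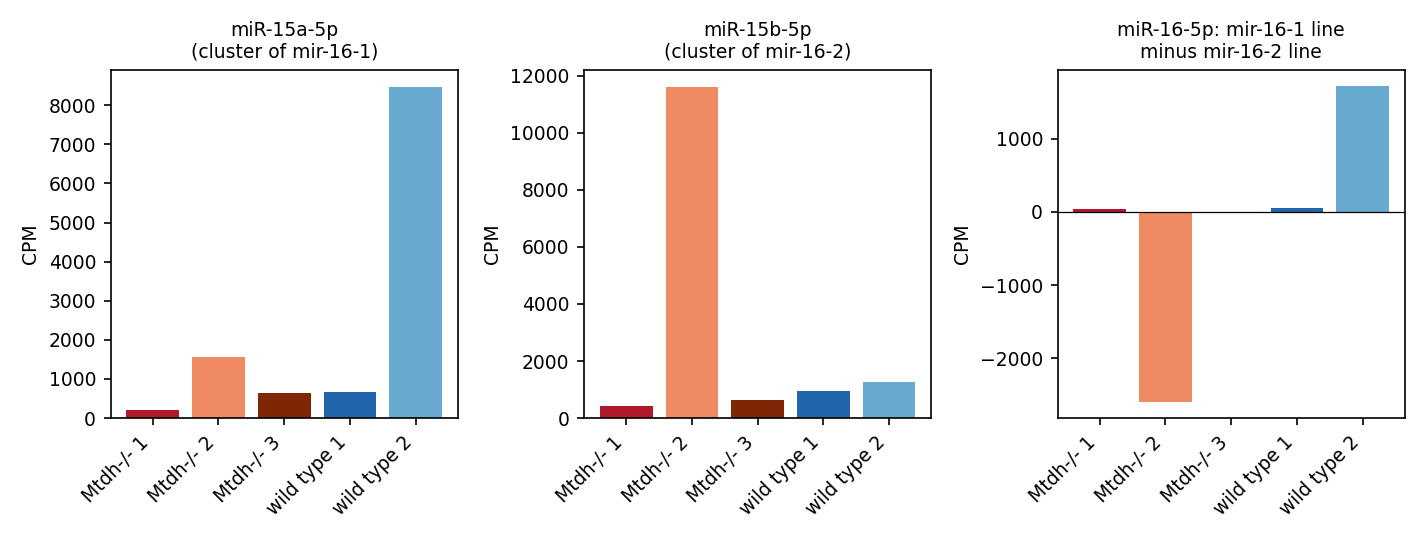
CPM of miR-15a-5p, CPM of miR-15b-5p and the CPM of miR-16-5p on the mir-16-1 line minus that on the mir-16-2 line, per library, with Mtdh-/- libraries left of wild-type libraries. The difference is -2600 CPM in Mtdh-/- 2, where miR-15b-5p is highest, and 1716 CPM in wild type 2, where miR-15a-5p is highest.

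Relatives by seed or by cluster were taken as a list of 10 names. Of these, 6 were tested and 0 passed edgeR's test in either direction, against percent called of 0% over all tested miRNAs. Their log2 fold changes were above 0 for 4 and below 0 for 2, with a median of 0.71. The passenger arms miR-15a-3p and miR-497-3p had 0 counts in all 5 libraries, and miR-503-3p had 5, 0 and 0 counts in Mtdh-/- 1, 2 and 3, against 0 and 3 counts in wild type 1 and 2. miR-195b is not analysed here.

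miR-322-5p, the mouse counterpart of human miR-424 with the family seed, followed miR-195a-5p. It had 240.2, 9513 and 673 CPM in Mtdh-/- 1, 2 and 3, against 367 and 619 CPM in wild type 1 and 2. Mtdh-/- 2 was 14.1-fold above the next library, and the other libraries overlapped. The log2 fold change was 2.74 ± 1.48 (SE), with an adjusted p of 0.867 by edgeR, and it was 0.060 without Mtdh-/- 2. Its cluster partner on chromosome X, miR-503-5p, had 44.4, 245 and 132 CPM in Mtdh-/- 1, 2 and 3, against 40.3 and 110 CPM in wild type 1 and 2, and a log2 fold change of 0.94 ± 0.80 (SE). It was highest in the same library, but by 1.86-fold over the next.

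The cluster partner of miR-195a did not share its high value. miR-497-5p, which has the family seed and lies 241 bases from mir-195a, had 537, 329 and 209 CPM in Mtdh-/- 1, 2 and 3, against 191 and 468 CPM in wild type 1 and 2. Its highest library was Mtdh-/- 1, where miR-195a-5p was lowest. The log2 fold change was 0.47 ± 0.74 (SE), with an adjusted p of 0.938 by edgeR, and its sign changed to -0.34 without Mtdh-/- 1. The opposite arm miR-322-3p, with 51.4, 110 and 217 CPM in Mtdh-/- 1, 2 and 3, against 75.5 and 35.8 CPM in wild type 1 and 2, was likewise highest in another library than its 5p arm.

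miR-103-3p and miR-107-3p, whose seed is the family's shifted by 1 base, were lowest in Mtdh-/- 2. miR-103-3p had 1716, 523 and 3250.4 CPM in Mtdh-/- 1, 2 and 3, against 2109 and 2833 CPM in wild type 1 and 2. miR-107-3p had 375, 110 and 909 CPM in Mtdh-/- 1, 2 and 3, against 529 and 552 CPM in wild type 1 and 2. Their log2 fold changes were -0.23 ± 0.84 and -0.06 ± 0.87 (SE), and both overlapped between genotypes. Without Mtdh-/- 2 their signs changed, to 0.20 and 0.39, and miR-107-3p was also above 0, at 0.22, without wild type 1.

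Likeness of pattern was measured as the mean absolute difference between centred log2 CPM over the 5 libraries, among 213 miRNAs counted in all 5 with a mean of at least 50 CPM. miR-16-5p was most like miR-1843b-5p, with a difference of 0.0413, then miR-1843a-5p (0.109) and miR-130b-3p (0.141). miR-1843b-5p had 436, 869 and 809 CPM in Mtdh-/- 1, 2 and 3, against 729.96 and 409 CPM in wild type 1 and 2, the same order of libraries as miR-16-5p. The summed family was most like miR-221-3p (0.137), miR-342-3p (0.180) and miR-1843a-5p (0.2004). miR-195a-5p was most like miR-322-5p (0.293), miR-24-3p (0.363) and miR-92b-3p (0.479). miR-15b-5p was most like miR-92b-3p (0.278), miR-322-5p (0.478) and miR-741-5p (0.481). The miRNAs most like the last 2 members share with them a maximum in Mtdh-/- 2: miR-24-3p had 800, 21076 and 2012 CPM in Mtdh-/- 1, 2 and 3, against 780.3 and 1537 CPM in wild type 1 and 2. These likenesses rest on 5 libraries that all the miRNAs share. The miRNAs were picked by likeness over these same libraries, so a shared maximum or order of libraries follows from the choice.

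The authors' deposited tables compare the most abundant sequence of each miRNA in single Mtdh-/- libraries, or combinations of them, with wild type after adding 10 to each value. All these comparisons share the wild-type libraries. In the authors' deposited table for Mtdh-/- 2, miR-195a-5p was higher by a ratio of 39.1 and miR-15b-5p by 19.5, in a table that lists 20.9% of the 531 counted miRNA names as higher. For miR-15a-5p the authors' deposited tables give ratios of 0.0440 in Mtdh-/- 1, 0.339 in Mtdh-/- 2 and 0.138 in Mtdh-/- 3, where 16.2%, 16.4% and 10.2% of miRNAs are listed as lower. Counting all isoforms, miR-15a-5p had 659 CPM in wild type 1, within the Mtdh-/- range, and 8472 CPM in wild type 2. Its log2 fold change by edgeR was -0.02 without wild type 2, so these ratios depend on that library. For miR-15b-5p the authors' deposited table of Mtdh-/- 1 gives 0.240, opposite to Mtdh-/- 2. Both ratios of miR-15b-5p are listed for the form without its last base, and not for the full sequence or all isoforms. The full sequence made up 71.1% of miR-15b-5p counts in Mtdh-/- 1 and 33.6% in Mtdh-/- 2, so these ratios also follow the share of that form. miR-16-5p is in none of the authors' deposited tables of changed miRNAs.

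The 3p members in these tables rest on few reads. The authors' deposited table for Mtdh-/- 2 lists miR-15b-3p at a ratio of 0.476, miR-16-1-3p at 0.400, miR-16-2-3p at 0.500 and miR-195a-3p at 0.345, all members with 0 counts there. The authors' deposited table over all 3 Mtdh-/- libraries, which lists 1.69% of miRNAs as lower, holds miR-16-2-3p with a ratio of 0.550 and a p of 0.00606 from a test that the sources used here do not describe. The authors' deposited tables for 2 libraries at a time list it as lower too, at 0.575 for Mtdh-/- 1 and 2, 0.575 for Mtdh-/- 1 and 3 and 0.500 for Mtdh-/- 2 and 3, in tables that list 2.64%, 1.88% and 1.51% of miRNAs as lower. The counts of the exact sequence behind it were 2, 0 and 0 in Mtdh-/- 1, 2 and 3, against 2 and 5 in wild type 1 and 2. Counting all isoforms, miR-16-2-3p overlapped between genotypes, as given above.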

How the data were processed

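Testes were frozen, RNA was isolated with a mirVana kit and Illumina TruSeq libraries were made, per the labels' protocols. Novoalign 2.07.11 is the tool given, per the submitters' processing notes. The sources used here do not give the genome build or how reads were counted. The authors deposited, per the file headers, unscaled counts of tags for each miRNA under each precursor, a normalized score (tags scaled by 1 factor per library and rounded), and tables with a fold ratio after adding 10 and, for combined libraries, a p-value. The smallest deposited count above 0 was 2, and blanks were read as 0. Another 236 per-library columns were not used.

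Of 846 lines for 736 mature miRNAs, each name kept its line of largest total (110 left out), and 19 names with identical most abundant sequences were joined. The test of counts was edgeR 4.0.16 under R 4.3.3 (quasi-likelihood test, robust fit, TMM, filterByExpr, Benjamini-Hochberg over all 246 miRNAs tested). The SEs given with edgeR's values are the absolute log2 fold change divided by the square root of the test's F statistic. The test was first run on simulated data. Recovery of set changes was required there only at a spread below that of these data, whose common biological coefficient of variation was 0.696. That run therefore does not show that true differences would be found here. TMM moved the median log2 fold change of all miRNAs to 0.19, against 0.02 with library totals. DESeq2 1.42.0, and limma 3.58.1 on log2 of the deposited scores plus 10, were alternatives. Genotypes came from the labels. Shares have Wilson 95% intervals. Host genes are from GENCODE M21 and sequences from RefSeq on GRCm38.p6. Named miRNAs were the members, a list of relatives, marker lists and the 3 most alike miRNAs. Members, lists and tests were chosen with earlier results of these data known.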

Additional observations from a re-analysis of the deposited data

How the results depend on the processing

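The 5 tested members had 70 fold changes under 15 alternatives of scaling, test, filter, counted sequence, precursor line, replicate block and left-out library, and 67 kept the direction of the reported value. The other 3 were miR-15b-5p at -0.83 and miR-195a-5p at -0.039 without Mtdh-/- 2, and miR-16-5p at -0.19 without wild type 2. With 1 library left out, log2 fold changes ran from -3.14 to -0.02 for miR-15a-5p, from -0.83 to 2.32 for miR-15b-5p, from -0.19 to 1.26 for miR-16-5p, from -0.039 to 3.19 for miR-195a-5p and, in the 2 fits that tested it, from -1.52 to -0.25 for miR-195a-3p. Sizes also moved: limma on the deposited scores gave 0.43 for miR-15b-5p, 1.24 for miR-195a-5p and -0.33 for miR-195a-3p, and over the alternatives that kept all libraries the log2 fold changes ran from 0.43 to 1.93, from 1.24 to 3.71 and from -1.08 to -0.33 for these members, from -3.17 to -1.84 for miR-15a-5p and from 0.02 to 0.47 for miR-16-5p. No member passed in any setting, and the lowest adjusted p of a member was 0.0696, for miR-15a-5p by edgeR without a filter on low counts. That setting tested 512 miRNAs and called 3 higher and 2 lower in Mtdh-/-, none a family member; the other alternatives called 0. With the replicate number as a block, edgeR called 0 miRNAs, with 12 at an unadjusted p under 0.05, and gave -1.84 for miR-15a-5p, 1.25 for miR-15b-5p, 0.47 for miR-16-5p and 2.01 for miR-195a-5p, and among relatives -1.16 for miR-103-3p and -1.17 for miR-107-3p. Libraries with the same number share only that number in the labels. Their deviations from the genotype mean correlated at -0.44 and 0.09, with 2 shared numbers. Pairs with unlike numbers gave -0.09 and 0.44. With 2 wild-type libraries the deviations are opposite by construction, so these values are not independent. The difference in the share of miR-16-5p, 3.49 points, was -2.10 points with the exact mature sequence, 2.28 to 4.33 with the other counts, and -8.51 to 15.5 with 1 library left out; it was below 0 without wild type 2, without Mtdh-/- 1 (-1.26) and without Mtdh-/- 3 (-1.20). The ratio of summed family CPM was 1.27 to 1.48 with other counts and 0.986 to 1.68 with 1 library left out. The cause was not tested. The fold changes of single members have SEs of 0.56 to 1.57. In Mtdh-/- 2, 0 counts allow 25.3 CPM or somewhat more, so the 3p members cannot be compared below that level.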
